A study of Rattus norvegicus with 26 samples.

Results

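Gene expression in the dentate gyrus (DG) was compared between rats given the chemotherapy drug doxorubicin (Dox) and vehicle-treated rats (Veh). The comparison took 18 of the 26 rats sequenced, 8 of the Dox group and 10 of the Veh group as labelled, and 15595 of the 17910 genes listed, namely those whose mean normalized count reached 5. All were male Fischer 344 (F344) rats about 6 months of age at the start of treatment, and neither group carried a transgene or a deletion. The Dox rats received 2 mg/kg of Dox in saline by intraperitoneal injection once a week for 4 weeks. The Veh rats received the vehicle of another drug by gavage and were shared with an ongoing study of brain aging. Whether they were also injected with saline, or whether the Dox rats were gavaged with vehicle, is not stated, so drug, route and source of the animals cannot be told apart. Another 8 rats, given Dox and the senolytic ABT-263 at 12 mg/kg (Dox + ABT), also entered the filter and the model, where they shared the estimates of the spread and of the covariate slope. Each rat gave 1 library of poly(A) RNA from the DG of 1 hemisphere, sequenced on an Ion Proton instrument, and tissue was taken after behavioral tests that followed the treatment. The p-values therefore measure the spread between rats.

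The DG is the hippocampal field that receives the perforant path. Its principal neurons are granule cells, which send mossy fibers to the hilus and to CA3, and new granule cells are born there from radial glia in adult life. Around them lie astrocytes, oligodendrocytes, microglia and a dense capillary bed whose endothelium forms the blood-brain barrier. Dox intercalates into DNA, poisons topoisomerase II and generates reactive oxygen species, and it crosses the intact barrier poorly. Work on its effects in the brain has therefore often dealt with circulating cytokines, vessels and glia. In RNA from whole tissue, fewer cells of a type and less RNA per cell cannot be told apart, and this holds for every cell type below.

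The tissue was checked against marker genes. The granule cell genes Prox1, C1ql2, Calb1 and Dsp were present in every rat and none of the 4 passed the test between the groups (p from 0.30 to 0.96). Prox1, the transcription factor that keeps granule cell identity, ranged from 1679.7 to 3587 normalized counts in Veh (median 2349) and from 1852 to 3473 in Dox (median 2558). Wfs1, a marker of CA1 pyramidal neurons, varied widely within both groups, from 1285 to 10494 normalized counts in Veh (median 4745) and from 884 to 9498 in Dox (median 3635). It did not pass the test either (log2 fold change -0.33 ± 0.51, p = 0.53). Fibcd1, another CA1 marker, ranged from 513 to 3096 normalized counts in Veh (median 1547) and from 678 to 2553 in Dox (median 1234) and did not pass (log2 fold change 0.12 ± 0.32, p = 0.71). The part of tissue from neighboring fields was not tested.

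Libraries differed widely within each group. Ribosomal protein genes, which encode the proteins of the cytosolic ribosome, took up 1.42% ± 0.447 (SD, n = 10) of all normalized counts in Veh and 1.21% ± 0.350 (SD, n = 8) in Dox. The difference, -0.20 on the log2 scale, was smaller than the spread between rats (exact permutation test over 43758 splits, two-sided, p = 0.40). Within the groups 5536 genes, 35.5% of those tested, followed this share at p under 0.01, and the share on the log2 scale was used as a covariate in every fold change below unless stated otherwise. Mitochondrial genes made up 13.5% ± 4.39 (SD, n = 10) in Veh and 9.66% ± 2.67 (SD, n = 8) in Dox, with p = 0.066 on the log2 scale and p = 0.045 on the percent scale in exact permutation tests. Estimated reads ranged from 10166231 to 24327755 per library and did not differ between the groups (exact permutation test, p = 0.87). A further measure, the share of 1 gene ID without a symbol, followed the rat numbers. In Veh it was 0.75% to 1.52% in rats numbered 6 or lower and 4.18% to 11.1% in those numbered 9 or higher. In Dox it was 0.73% to 1.22% in rats numbered 7 or lower and 2.75% to 5.43% in those numbered 9 or higher. What this split stands for was not tested.

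**Figure D1:**
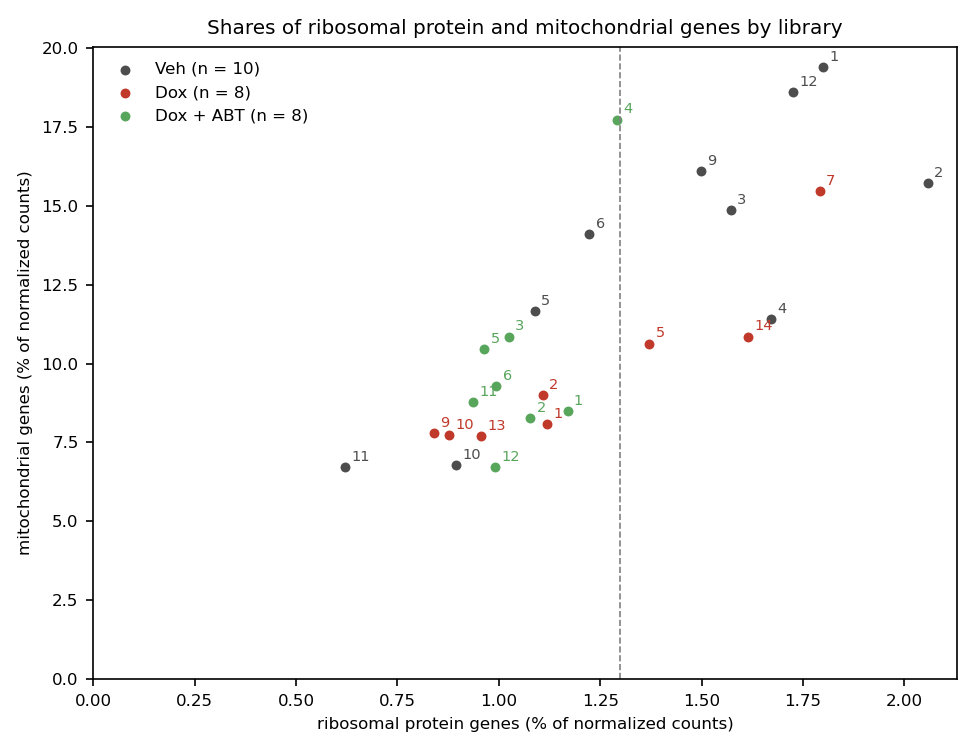
Share of normalized counts taken by ribosomal protein genes (x axis, percent) and by mitochondrial genes (y axis, percent) in the Veh, Dox and Dox + ABT libraries. Each point is 1 library with its rat number, and the dashed line marks a ribosomal share of 1.3%, with 6 Veh rats above and 4 below it and 3 Dox rats above and 5 below it.

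The Dox rats were not alike. Rats 1 and 2 deviated from the Dox mean together (correlation of deviations 0.57 across 13667 genes, which are not independent), as did rats 5 and 7 (0.56), while rats 9, 10 and 13 formed a further set (0.38 to 0.51). Rat 7 deviated also with rat 14 (0.33), and its log2 values correlated about as closely with those of rat 14 (0.977) as with those of rat 5 (0.978). The highest Veh rat was exceeded more than 2-fold for 112 genes in rat 1, 118 in rat 2, 181 in rat 5 and 36 in rat 7, against 5 to 9 genes in each of the other 4 Dox rats. More than 2-fold below the lowest Veh rat were 110 genes in rat 1, 148 in rat 2, 71 in rat 5 and 25 in rat 7, against 34 to 47 in the other 4, so rat 7 did not stand apart in that direction. Csf2rb, the common beta chain of the GM-CSF and IL-3 receptors, was chosen after its values were seen to show this pattern. It stood at 250.5 normalized counts in rat 1 and 249 in rat 2, between 11.8 and 35 in the other Dox rats, and between 16.8 and 34.5 in Veh, and it did not pass (log2 fold change 0.50 ± 0.45, p = 0.27). No pair of rats within a group agreed within counting noise. The closest, Dox rats 9 and 13, differed by 3.13 times the variance that counting alone gives, rats 1 and 2 by 4.74, rats 7 and 14 by 8.91 and rats 5 and 7 by 10.8 times, and each library was counted as 1 sample. The labels name no trait that sets these 4 rats apart, but their numbers are the 4 lowest of the Dox rats. The gene ID without a symbol described above also had its 4 lowest Dox shares in them. Whether a batch lies behind this was not tested, and both pairs were left out in turn for each result below.

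At p under 0.01, 463 genes passed limma's test between Dox and Veh, 2.97% of the genes tested, where 156 would pass by chance. Of these 187 (1.2%) were higher and 276 (1.77%) lower in Dox. Levels are given as normalized counts, and fold changes as the difference on the scale log2(normalized count + 1) with its standard error after the ± sign. Among the genes that passed, the median absolute log2 fold change was 0.47 and the extremes were -1.99 and 2.74, and 45 rose and 22 fell by more than 1. Over all genes tested the median was 0.01 and 53.1% were above 0. An adjusted p under 0.05 (Benjamini-Hochberg) was reached by 5 genes, 0.0321% of those tested, all lower in Dox, and an unadjusted p under 0.05 by 1420. The count of 5 was not stable, with 4 to 35 genes when each rat was left out in turn (35 without Dox rat 10 and 19 without Dox rat 9), 1 without rats 1 and 2, 13 without rats 5 and 7 and 0 without these 4 rats. Without the covariate 448 genes passed, 159 higher (1.02%) and 289 lower (1.85%), of which 358 were among the 463, and with the mitochondrial share as the covariate 291 passed, 223 of them among the 463. Without Dox rat 2 alone 292 genes passed, and without Dox rat 1 alone 306.

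The 5 genes with an adjusted p under 0.05 encode proteins of unlike kinds. Gfap encodes the intermediate filament of astrocytes. It ranged from 13086 to 28989.7 normalized counts in Veh (median 24173) and from 9327 to 18662 in Dox (median 13694). All 8 Dox rats lay below the Veh median, with rats 1 and 2 lowest at 9698 and 9327 and rat 7 highest, so that the groups overlapped (log2 fold change -0.64 ± 0.12, p = 1.2e-05, adjusted p = 0.036). Dbp is a transcription factor of the circadian output that is driven directly by CLOCK and BMAL1, and ranged from 1333 to 2499.6 normalized counts in Veh (median 2048) and from 1008 to 1441 in Dox (median 1202). Of the Dox rats only rat 14 reached any Veh rat, namely rats 5, 10 and 11, which had ribosomal shares under 1.3% (log2 fold change -0.51 ± 0.08, p = 1.6e-06, adjusted p = 0.010). Hhatl, a membrane protein related to Hedgehog acyltransferase, ranged from 88.3 to 295 normalized counts in Veh (median 229.6) and from 48.4 to 132 in Dox (median 79.2). Only Veh rats 10 and 11 lay within the Dox range (log2 fold change -1.08 ± 0.18, p = 2.3e-06, adjusted p = 0.010).

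Fcrl2, a member of the Fc receptor-like family, ranged from 115 to 229 normalized counts in Veh (median 178) and from 48.1 to 133 in Dox (median 90.1). Dox rats 1, 2 and 14 were lowest, and all Dox rats lay below the Veh median (log2 fold change -1.11 ± 0.19, p = 2.7e-06, adjusted p = 0.010). Slc35d3, an orphan member of the nucleotide sugar transporters, ranged from 33.6 to 84.2 normalized counts in Veh (median 61.5) and from 7.69 to 32.9 in Dox (median 24.6). The groups did not overlap, and rats 5 and 7 were lowest (log2 fold change -1.48 ± 0.22, p = 4.0e-07, adjusted p = 0.0063). All 5 genes kept p under 0.01 without rats 1 and 2, without rats 5 and 7, without the covariate and without each single rat.

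**Figure D2:**
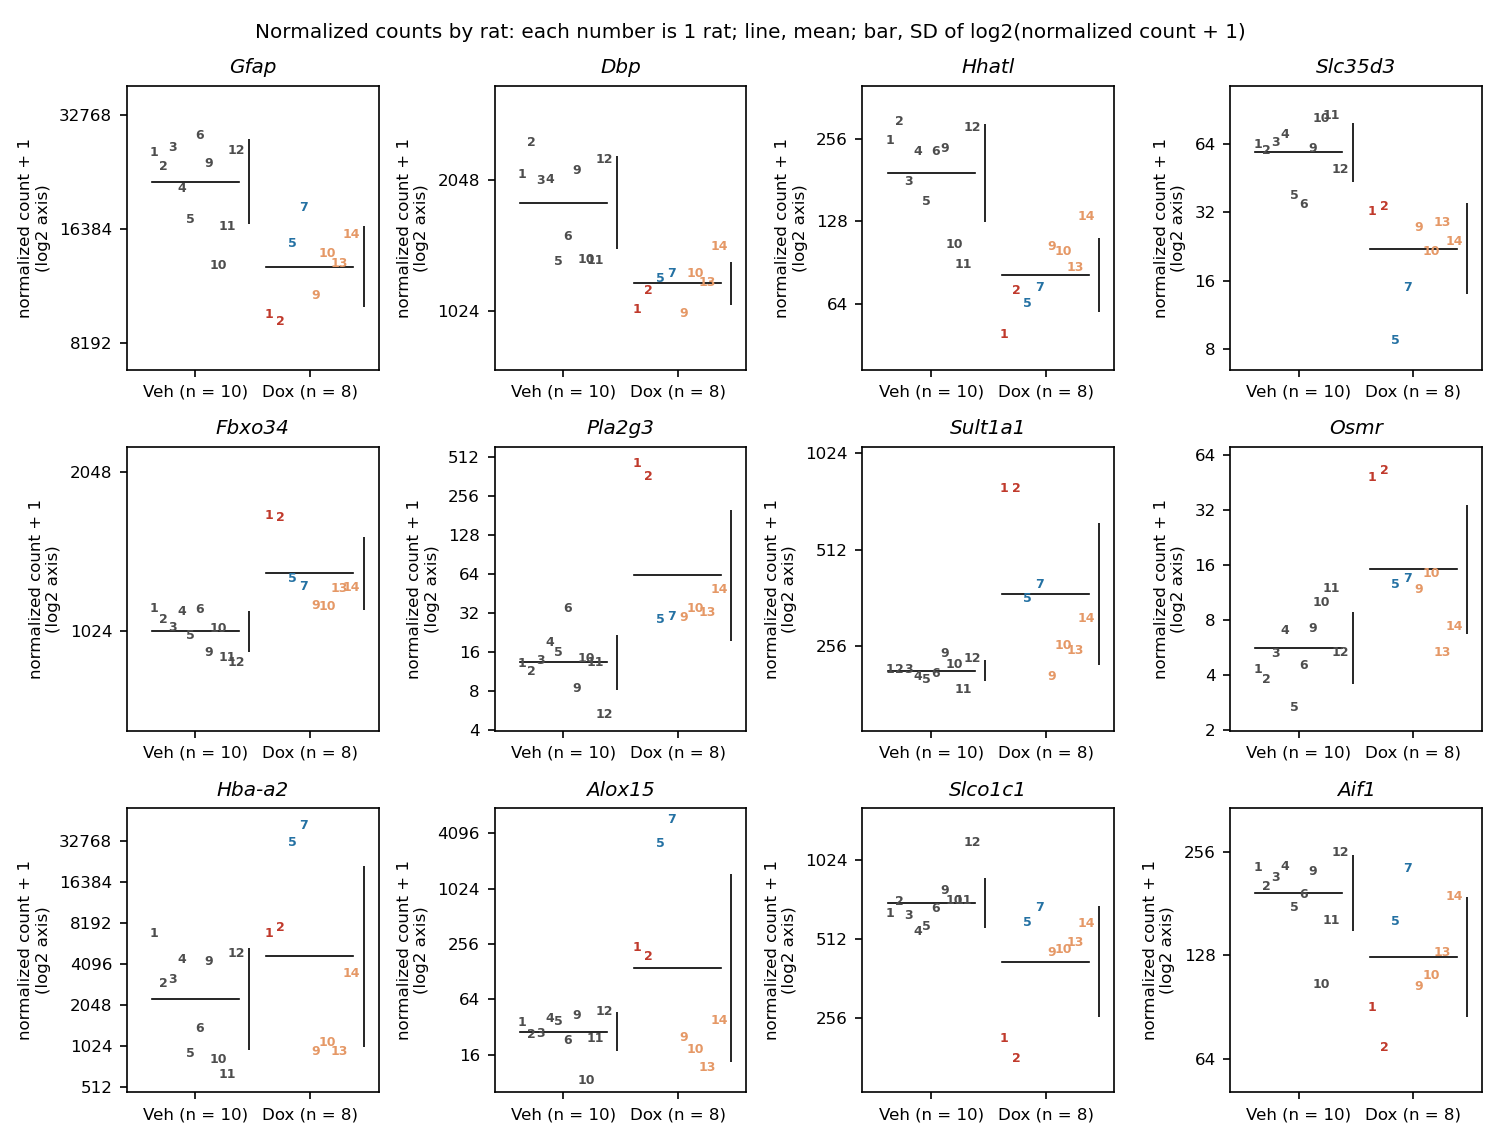
Normalized count + 1 (y axis, log2 scale) of 12 genes in Veh (gray) and Dox rats, where each number is 1 rat (red, Dox rats 1 and 2; blue, rats 5 and 7; orange, the other Dox rats), the line is the group mean and the bar the SD of the log2 values. All 8 Dox values of Gfap, Dbp, Hhatl and Slc35d3 lie below the Veh median, Osmr, Pla2g3 and Sult1a1 are highest in rats 1 and 2, Hba-a2 and Alox15 are highest in rats 5 and 7, and Slco1c1 and Aif1 are lowest in rats 1 and 2.

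Among the 15595 genes, 3 did not overlap between the groups. In 2 of them all Dox rats were lower (0.0128% of those tested), Slc35d3 and Serpinb6b, and in 1 all were higher (0.00641%), Fbxo34. Serpinb6b, a serine protease inhibitor named after its values were seen, was at most 4.9 normalized counts in Dox and at least 4.98 in Veh (log2 fold change -1.62 ± 0.41, p = 0.00045), a gap smaller than 1 count. Fbxo34, which encodes the substrate-binding part of a ubiquitin ligase, ranged from 889 to 1126 normalized counts in Veh (median 1037) and from 1139 to 1692 in Dox (median 1238). The counts were 1692 and 1677 in rats 1 and 2 and in the other 6 Dox rats between 1139 and 1283, where the highest Veh rat had 1126 (log2 fold change 0.38 ± 0.08, p = 6.7e-05).

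Single genes passed in the lists of DG neurons, at shares near the 2.97% of all genes tested. Of 17 granule cell genes tested 0 were higher and 1 lower, with a median log2 fold change of -0.03. The lower gene was Npnt, an extracellular ligand of integrin alpha 8 beta 1, which ranged from 10.7 to 53.6 normalized counts in Veh (median 17.8) and from 9.1 to 22.5 in Dox (median 14.4). It was not called without the covariate (log2 fold change -0.61 ± 0.21, p = 0.0081, and p = 0.084 without the covariate). Of 20 genes of hilar mossy cells and the CA fields 1 rose and 0 fell, with a median of -0.11. This was Cpne7, a calcium-dependent phospholipid-binding copine, which ranged from 844 to 1244 normalized counts in Veh (median 1017) and from 1058 to 2025 in Dox (median 1429). All Dox rats lay above the Veh median, rats 1, 2 and 10 were highest, and without rats 1 and 2 the call was lost (log2 fold change 0.49 ± 0.17, p = 0.0079, and p = 0.055 without them). None of 25 interneuron genes passed, the nearest being Nos1, neuronal nitric oxide synthase (log2 fold change -0.20 ± 0.09, p = 0.029). Of 20 genes of newborn neurons 3 were above 0, with a median of -0.17, and 1 passed. Igfbpl1, a secreted protein of migrating neuroblasts, ranged from 10.9 to 23 normalized counts in Veh (median 15.6) and from 3.07 to 19.3 in Dox (median 8.36). Dox rats 2, 7 and 13 lay within the Veh range, and rats 5, 10 and 9 were lowest (log2 fold change -0.90 ± 0.28, p = 0.0035, and p = 0.020 without rats 5 and 7).

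Of 32 astrocyte genes 1 was higher and 7 lower, with a median log2 fold change of -0.14. Apart from Gfap, Entpd2, an ectonucleotidase that breaks down extracellular ATP and also marks the radial stem cells of the DG, ranged from 490.4 to 862 normalized counts in Veh (median 757) and from 261 to 654 in Dox (median 469). Every Dox rat lay below the Veh median, and rats 1 and 2 were lowest (log2 fold change -0.53 ± 0.13, p = 0.00027). Without rats 1, 2, 5 and 7 Entpd2 did not pass (log2 fold change -0.17, p = 0.10). Aqp4, the water channel of astrocyte endfeet, ranged from 2728 to 5069.7 normalized counts in Veh (median 3575) and from 2215 to 3383 in Dox (median 2469). Again no Dox rat reached the Veh median, and rat 10 was the highest of them (log2 fold change -0.45 ± 0.12, p = 0.00082). Plpp3, a lipid phosphate phosphatase, had a log2 fold change of -0.28 ± 0.08 with the covariate and -0.19 without it (p = 0.0027 and 0.10). Of the 8 astrocyte calls 6 remained without rats 1 and 2, 5 without rats 5 and 7, 6 without the covariate and 4 with the mitochondrial share as the covariate.

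Slc25a18, Fabp5 and Etnppl were not in the astrocyte list and were named for their small p. Slc25a18, a mitochondrial glutamate carrier, ranged from 515 to 923 normalized counts in Veh (median 758) and from 355 to 645 in Dox (median 483). Rats 5 and 7 were the lowest here, and all Dox rats lay below the Veh median (log2 fold change -0.53 ± 0.12, p = 0.00014). Fabp5, a fatty acid carrier of glia and neural progenitors, ranged from 372 to 1260.2 normalized counts in Veh (median 1005) and from 456 to 915 in Dox (median 556). Veh rats 5, 6, 10 and 11 lay among the Dox rats or below them (log2 fold change -0.31 ± 0.07, p = 9.9e-05, and p = 0.012 without the covariate). Etnppl, an ethanolamine phosphate lyase of astrocytes, ranged from 129 to 247 normalized counts in Veh (median 161) and from 181 to 432 in Dox (median 270.2). It went the other way, with all 8 Dox rats above the Veh median and rats 1 and 2 at 432 and 420.0 (log2 fold change 0.65 ± 0.16, p = 0.00047). Without rats 1, 2, 5 and 7 Etnppl did not pass (log2 fold change 0.17, p = 0.27).

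In the oligodendrocyte lineage 0 of 30 genes of mature cells and myelin were higher and 4 lower, with a median of -0.16, and 1 of 21 genes of precursors and newly formed cells was lower. Klk6, a protease secreted by oligodendrocytes, ranged from 92.4 to 351 normalized counts in Veh (median 236) and from 116 to 171 in Dox (median 129.6). No Dox rat reached the Veh median, and Veh rat 11 was lower than any of them (log2 fold change -0.57 ± 0.16, p = 0.0011). Ugt8, which makes the galactolipids of myelin, ranged from 363 to 731 normalized counts in Veh (median 421) and from 174 to 453 in Dox (median 368). Dox rats 2 and 1 were the lowest of the 18 rats and Veh rat 6 the highest (log2 fold change -0.45 ± 0.15, p = 0.0070). Enpp6, which marks newly formed oligodendrocytes, ranged from 54 to 94.5 normalized counts in Veh (median 70.4) and from 24.6 to 73.6 in Dox (median 48.9). For Enpp6 too the lowest values of the 18 rats belonged to Dox rats 1 and 2 (log2 fold change -0.63 ± 0.16, p = 0.00059). Mbp, another major myelin protein, did not pass (log2 fold change -0.15 ± 0.16, p = 0.35). Of the 4 mature calls Klk6 remained without rats 1 and 2, and none remained with the mitochondrial share as the covariate. The call of Ugt8 was also lost when any 1 of 7 rats was left out, namely Veh rats 5, 6, 10 and 12 and Dox rats 1, 2 and 14 (largest p = 0.022).

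Microglial genes that passed were all lower, 7 of 31 with 0 higher and a median of -0.20. Aif1, which encodes Iba1, ranged from 104 to 253 normalized counts in Veh (median 208) and from 68 to 228 in Dox (median 120.2). The lowest values, 89.1 and 68, came from Dox rats 1 and 2 and rat 7 lay above the Veh median (log2 fold change -0.48 ± 0.14, p = 0.0022). Csf3r, the receptor of G-CSF, stood at 12.3 and 9.39 in rats 1 and 2 and between 24.6 and 61.7 in the other Dox rats, with Veh rats from 44.8 to 80 (log2 fold change -0.91 ± 0.28, p = 0.0031). P2ry13, a purinergic receptor of resting microglia, had a log2 fold change of -0.73 ± 0.24 (p = 0.0045). None of the 7 kept p under 0.01 without rats 1 and 2, 5 did without rats 5 and 7, and 2 did with the mitochondrial share as the covariate. Without Veh rat 11 alone the calls of Aif1 and P2ry13 were lost (for Aif1 p = 0.022).

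Cd180 and Cd22, cell surface genes of B cells and myeloid cells, were in no list and were named for the size of their change. Cd180, a receptor related to the Toll-like receptors, ranged from 47.5 to 112 normalized counts in Veh (median 65.7) and from 14.2 to 57.6 in Dox (median 40). Each Dox rat lay below the Veh median, rats 1 and 2 far below (log2 fold change -0.93 ± 0.23, p = 0.00048). Cd22, a sialic acid-binding lectin, ranged from 35.7 to 90.1 normalized counts in Veh (median 53.2) and from 14.2 to 45.9 in Dox (median 28). Again all Dox rats lay below the Veh median, with rats 1 and 14 lowest (log2 fold change -0.95 ± 0.20, p = 5.6e-05). Both kept the call without either pair of rats. Of 22 genes named for border macrophages and blood leukocytes 8 could be tested and 0 passed, the nearest being Cd74, the invariant chain of MHC class II (log2 fold change -0.76 ± 0.28, p = 0.011).

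Endothelial and barrier genes moved in both directions, with 2 higher and 5 lower of 33 and a median of 0.09. Slco1c1, the thyroxine carrier of the barrier, ranged from 549 to 1199 normalized counts in Veh (median 692) and from 179.5 to 676 in Dox (median 483). Rats 1 and 2 had the lowest values, 214 and 179.5, and the next Dox rat had 454 (log2 fold change -0.70 ± 0.19, p = 0.0012, and p = 0.0061 without rats 1 and 2). Slco1a4, an organic anion carrier, ranged from 272 to 759 normalized counts in Veh (median 394) and from 64.5 to 394 in Dox (median 249). It too was lowest in rats 1 and 2, at 81.6 and 64.5, and lost the call without them (log2 fold change -0.90 ± 0.26, p = 0.0021, and p = 0.015). Itm2a, a membrane protein of brain capillaries, ranged from 164 to 457 normalized counts in Veh (median 274) and from 80.6 to 261 in Dox (median 203), with the same 2 rats lowest (log2 fold change -0.76 ± 0.20, p = 0.00066). Kdr, the main receptor of VEGF-A, ranged from 42.9 to 129 normalized counts in Veh (median 71.8) and from 88 to 165 in Dox (median 128). Every Dox rat lay above the Veh median, and Veh rats 10 and 12 lay among them (log2 fold change 0.79 ± 0.21, p = 0.00086, and p = 0.018 without rats 5 and 7). Of the 7 endothelial calls 3, those of Slco1c1, Itm2a and Kdr, remained without rats 1 and 2, and 5 without rats 5 and 7. Vtn, a plasma and pericyte matrix protein, was the 1 mural cell gene of 17 to pass and ranged from 150.3 to 387 normalized counts in Veh (median 291) and from 109 to 229.7 in Dox (median 144), with all Dox rats below the Veh median (log2 fold change -0.57 ± 0.14, p = 0.00030).

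Of 20 genes of vasoactive and angiogenic signals 2 were higher and 2 lower, with a median of -0.13. Angpt2, a ligand that destabilizes vessels by antagonizing the receptor Tie2, ranged from 4.47 to 19.8 normalized counts in Veh (median 11.7) and from 10.3 to 128 in Dox (median 67.3). Dox rats 1, 2, 5 and 7 lay between 101 and 128, rat 14 at 33.7, and rats 9, 10 and 13 within the Veh range (log2 fold change 2.04 ± 0.45, p = 0.00011). Without rats 1, 2, 5 and 7 Angpt2 did not pass (log2 fold change 0.54, p = 0.20). Vegfa, the ligand of Kdr, ranged from 362 to 1449 normalized counts in Veh (median 769) and from 936 to 2306 in Dox (median 1474). All Dox rats lay above the Veh median, rats 5 and 7 were highest, and the call was lost without those 2 or either of them (log2 fold change 0.61 ± 0.19, p = 0.0034, and p = 0.12 without both). Within libraries below a ribosomal share of 1.3% its log2 fold change was 0.0039. Ednrb, an endothelin receptor of astrocytes and endothelium, was just past the threshold (log2 fold change -0.46 ± 0.17, p = 0.0099). Aplnr, the apelin receptor of sprouting vessels, was listed at 0 in Dox rats 1 and 2 and ranged from 9.07 to 29.8 normalized counts in Veh (median 13.9) and from 0 to 27.7 in Dox (median 8.15), with a log2 fold change of -1.42 ± 0.49, p = 0.0070, and p = 0.088 without those rats. Tinagl1, a basement membrane protein of vessels, was among the higher genes with the smallest p and ranged from 21.1 to 113 normalized counts in Veh (median 48.2) and from 82.6 to 253 in Dox (median 120.5). Rats 1, 2, 5 and 7 were highest and Veh rat 11 lay above the other 4 Dox rats (log2 fold change 1.27 ± 0.32, p = 0.00040, and p = 0.011 without rats 5 and 7).

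Red cell genes had the highest share of calls of any list, 7 higher and 0 lower of 8, with a median log2 fold change of 1.61. The list holds globins, Alas2, which starts heme synthesis in erythroid cells, and Slc4a1, the anion exchanger of the red cell membrane. Their promoters are shown because these genes moved together in the same rats and because erythroid promoters are known for sites of GATA1, the master factor of the lineage. RefSeq promoters of the rat assembly GRCr8, another build than the rn6 of the alignment, were matched by symbol for 6 of the 8 genes. Each sequence below is the 250 bases before the start of the gene, read 5′ to 3′ on its strand, with GATAA and, for the same motif on the other strand, TTATC in capitals.
Alas2 (chrX:22895200-22895449, + strand): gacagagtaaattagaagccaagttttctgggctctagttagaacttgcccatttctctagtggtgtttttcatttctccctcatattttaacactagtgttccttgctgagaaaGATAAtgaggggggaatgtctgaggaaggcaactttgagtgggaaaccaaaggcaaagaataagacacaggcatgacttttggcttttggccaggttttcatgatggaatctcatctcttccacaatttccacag
Hba-a2 (chr10:15829139-15829388, - strand): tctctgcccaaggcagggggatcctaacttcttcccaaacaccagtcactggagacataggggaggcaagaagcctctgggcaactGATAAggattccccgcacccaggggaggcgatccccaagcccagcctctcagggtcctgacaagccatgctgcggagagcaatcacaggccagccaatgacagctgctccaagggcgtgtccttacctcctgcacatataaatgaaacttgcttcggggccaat
Hbb (chr1:167663722-167663971, - strand): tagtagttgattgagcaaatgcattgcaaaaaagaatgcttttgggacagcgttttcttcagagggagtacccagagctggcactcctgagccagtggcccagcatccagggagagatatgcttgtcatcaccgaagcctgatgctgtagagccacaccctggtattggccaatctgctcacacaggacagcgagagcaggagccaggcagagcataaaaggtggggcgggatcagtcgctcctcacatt
Alas2 and Hba-a2 each held 1 match, 135 and 164 bases before the start, and Hbb held none in this window. The motif was in 4 of the 7 promoters listed for the 6 genes. Of all 33469 promoters tabulated, 23.5% held the motif in a window of this length. A match of 5 letters describes the sequence and no more.

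Hba-a2, an alpha globin, ranged from 624 to 6775 normalized counts in Veh (median 3007) and from 919 to 42089 in Dox (median 5152). Rats 5 and 7 had 31916 and 42089, rats 1 and 2 had 6856 and 7476, just above the highest Veh rat, and rats 9, 10 and 13 had 919 to 1083 (log2 fold change 1.597 ± 0.43, p = 0.00082). Its lowest Veh values, 624 to 1367, came from the 4 Veh rats with a ribosomal share under 1.3%, and the other 6 had 2911 or more. Alas2 stood at 443 and 953 in rats 5 and 7 and at most at 209 in the other Dox rats, with Veh rats from 16.3 to 109 (log2 fold change 1.67 ± 0.39, p = 0.00021). Hbb, a beta globin, stood at 33551 and 47294 in the same rats, with Veh rats from 899 to 10896 (log2 fold change 1.33 ± 0.35, p = 0.00082). Slc4a1 stood at 982 and 1286, whereas the other Dox rats had 30.4 or less and the highest Veh rat 42.9 (log2 fold change 2.53 ± 0.78, p = 0.0029). For each of these 4 genes rats 5 and 7 were above every other rat, and the other Dox rats lay on both sides of the Veh median. Slc4a1 also lost its call without rat 5 alone or rat 7 alone. Without the covariate 0 of the 8 genes passed (Hba-a2, p = 0.12), without rats 5 and 7 again 0 (Hba-a2, p = 0.037), and without rats 1 and 2, 6. Reads of near-identical globin copies can be split between the copies, so the single globin values are uncertain. The summed level of the list ran from 2397 to 26865 in Veh and from 3722 to 135575 in Dox. Brains were rinsed after decapitation and no perfusion is described, and the part of blood left in the tissue was not tested.

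Alox15 encodes arachidonate 15-lipoxygenase, which oxidizes membrane fatty acids and is known from maturing red cells as well as from macrophages and eosinophils. It had the largest log2 fold change of the genes that passed. Alox15 stood at 3158 and 5706 normalized counts in rats 5 and 7, at 232 and 187 in rats 1 and 2, and between 10.7 and 36.4 in the other 4 Dox rats, with Veh rats from 7.44 to 46.1 (log2 fold change 2.74 ± 0.76, p = 0.0013). Without rats 5 and 7 it did not pass (p = 0.065), and without all 4 rats its log2 fold change was -0.17. It also just missed the threshold without the covariate (p = 0.0105). Acer2, an alkaline ceramidase of the Golgi that releases sphingosine, had the smallest p of the higher genes named here whose mean reached 50 normalized counts. Acer2 ranged from 130.2 to 821 normalized counts in Veh (median 299) and from 279.9 to 3409.6 in Dox (median 792). Rats 5 and 7 had 3409.6 and 1565, rat 1 had 935, and the other 5 lay within the Veh range (log2 fold change 1.57 ± 0.32, p = 3.2e-05). Ybx3, a cold shock domain protein that binds mRNA, stood at 1214 and 1636 in rats 5 and 7 and at most at 578 in the other Dox rats, with Veh rats up to 551 (log2 fold change 0.62 ± 0.16, p = 0.00055, and p = 0.017 without rats 5 and 7). Lgals5, a galectin found on rat reticulocytes, stood at 187 and 212 in those rats and at most at 24.3 in the others (log2 fold change 2.11 ± 0.58, p = 0.0011, and p = 0.051 without them). Without the covariate neither Ybx3 (p = 0.022) nor Lgals5 (p = 0.049) passed.

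Fibroblast genes of the meninges were lower where they passed, 3 of 18 with 0 higher and a median of -0.16. Col3a1, a fibrillar collagen, ranged from 11.9 to 61.1 normalized counts in Veh (median 22.5) and from 3.79 to 18.8 in Dox (median 8.34). No Dox rat reached the Veh median (log2 fold change -1.38 ± 0.30, p = 7.5e-05). Aldh1a2, which makes retinoic acid, ranged from 15.9 to 44.8 normalized counts in Veh (median 32.8) and from 9.65 to 26.7 in Dox (median 16.5), with a log2 fold change of -0.89 ± 0.26, p = 0.0017. Lum, a collagen-binding proteoglycan, ranged from 11.1 to 37.3 normalized counts in Veh (median 30.3) and from 9.22 to 22.3 in Dox (median 12.5), with a log2 fold change of -0.81 ± 0.25, p = 0.0032, and p = 0.026 without Veh rat 11. Col3a1 alone of the 3 remained without rats 1 and 2. Of 10 choroid plexus genes 0 passed (nearest Msx1, log2 fold change -0.31 ± 0.15, p = 0.043), and their summed level ran from 1430 to 2312 in Veh and from 1576 to 2120 in Dox. Of 9 ependymal genes 0 passed (nearest Spef2, log2 fold change 0.60 ± 0.30, p = 0.054). Among 20 genes of dividing cells 1 was higher and 1 lower, with a median of -0.09. Mki67, a chromosome surface protein of cycling cells, ranged from 88.2 to 205 normalized counts in Veh (median 132) and from 131 to 610.0 in Dox (median 219.5). The highest values, 610.0 and 558, belonged to rats 1 and 2 (log2 fold change 0.71 ± 0.23, p = 0.0041, and p = 0.050 without them). Prc1, a protein of the spindle midzone, went the other way at few counts (log2 fold change -0.93 ± 0.33, p = 0.0085), and its call was lost when any 1 of 11 rats was left out.

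**Figure D3:**
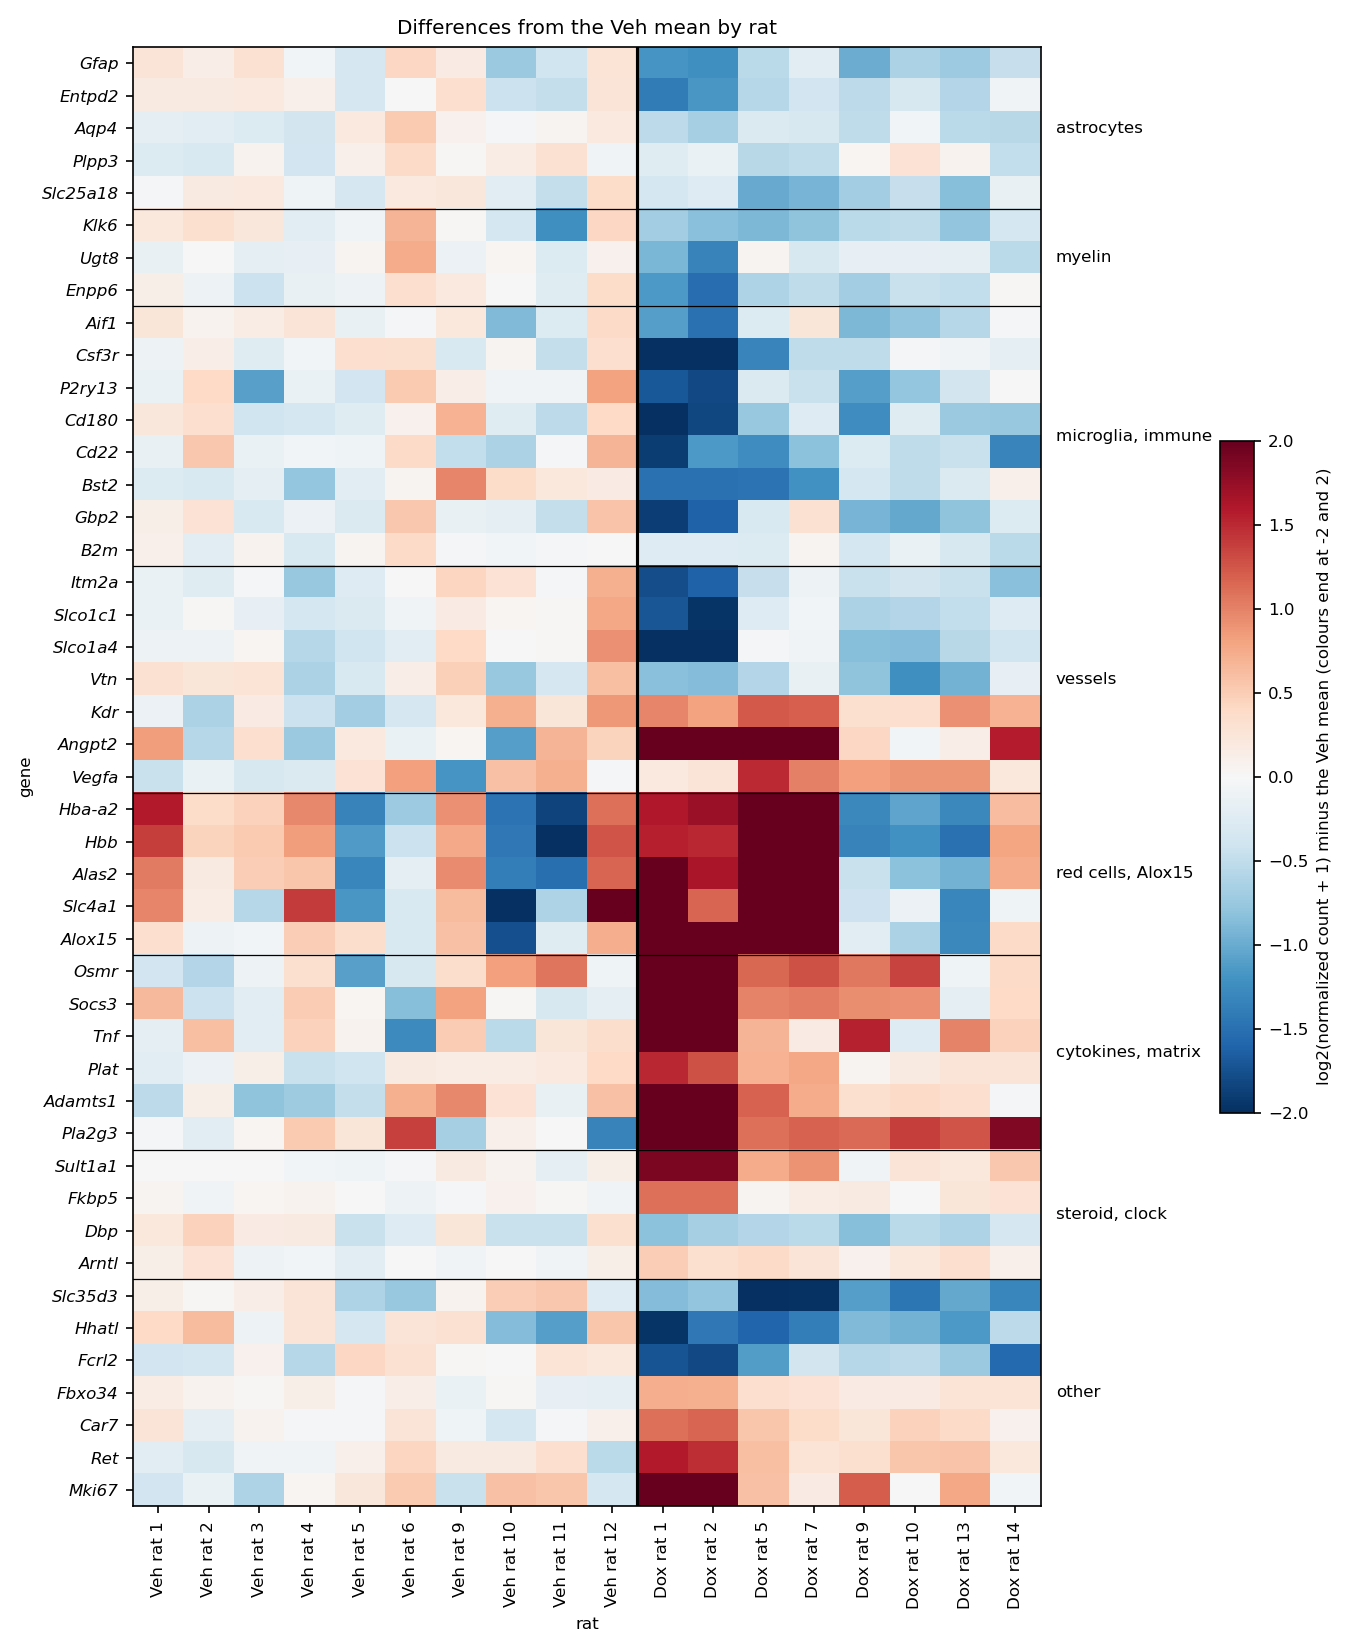
Log2(normalized count + 1) minus the mean of the Veh rats (color; red higher, blue lower, colors end at -2 and 2, no covariate) for 45 called genes (rows, grouped by cell type or function) in each of the 10 Veh and 8 Dox rats (columns). The columns of Dox rats 1 and 2 carry strong colors in most groups and those of rats 5 and 7 in the red cell genes, while those of rats 9, 10, 13 and 14 are paler.

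Of 19 genes of glucocorticoid receptors and response 2 were higher and 0 lower, 15 were above 0, and the median was 0.16. Sult1a1, a phenol sulfotransferase that glucocorticoids induce, ranged from 186 to 241 normalized counts in Veh (median 215) and from 204 to 792 in Dox (median 335). Rats 1 and 2 had 791 and 792, rats 5 and 7 had 358 and 399, and rat 9 alone lay below the Veh median (log2 fold change 0.84 ± 0.19, p = 0.00012, and p = 5.4e-05 without rats 1 and 2). Fkbp5, a co-chaperone that restrains the glucocorticoid receptor and is itself induced by it, stood at 4011 and 3998 in rats 1 and 2 and between 1859.8 and 2278 in the other Dox rats, with Veh rats from 1739 to 1968 (log2 fold change 0.39 ± 0.12, p = 0.0036, and p = 0.023 without rats 1 and 2).

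Of 22 circadian clock genes 1 was higher and 2 were lower, with a median of -0.06. Arntl, which encodes BMAL1 and peaks opposite to Dbp in the daily cycle, ranged from 279 to 396 normalized counts in Veh (median 315) and from 343 to 455 in Dox (median 396). Every Dox rat lay above the Veh median (log2 fold change 0.29 ± 0.08, p = 0.0011), so that Arntl rose where Dbp fell. Rorb, a nuclear receptor that can activate Arntl, ranged from 59.6 to 169.6 normalized counts in Veh (median 78.1) and from 42.2 to 90.5 in Dox (median 64.8), with a log2 fold change of -0.64 ± 0.20, p = 0.0039, and lost the call without Veh rat 11 alone or Dox rat 2 alone (p up to 0.014). The hour at which each rat was killed is not given, and its part was not tested. Among 30 immediate early genes, which neurons induce within minutes of activity, 1 was higher and 0 lower. Pim1, a kinase induced by cytokines through STAT factors, stood at 187 and 175 in rats 1 and 2 and from 21.8 to 59.6 in the other Dox rats, with Veh rats up to 36.2 (log2 fold change 1.07 ± 0.30, p = 0.0012, and p = 0.012 without rats 1 and 2).

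Of 34 genes of cytokines, chemokines and NF-kB 3 were higher and 1 lower, with a median of 0.06. Osmr, the receptor of oncostatin M, ranged from 1.65 to 10.9 normalized counts in Veh (median 4.27) and from 4.29 to 51.6 in Dox (median 12). It stood at 47.4 and 51.6 in rats 1 and 2, and every Dox rat lay above the Veh median (log2 fold change 1.34 ± 0.38, p = 0.0017). Socs3, the feedback inhibitor of STAT3, ranged from 4.42 to 16 normalized counts in Veh (median 8.22) and from 7.51 to 182 in Dox (median 18). The level was 93.9 and 182 in rats 1 and 2, and 18.8 or less in the other Dox rats (log2 fold change 1.47 ± 0.43, p = 0.0019). Tnf, a cytokine of microglia, was at 44.5 and 71 in the same rats and at most at 8.8 in the others, with Veh rats up to 4.15 (log2 fold change 1.46 ± 0.51, p = 0.0085). None of the 3 passed without rats 1 and 2 (p = 0.023 for Osmr, 0.016 for Socs3 and 0.13 for Tnf). Vcam1, the leukocyte adhesion molecule of endothelium and of quiescent stem cells, ranged from 444 to 696 normalized counts in Veh (median 522) and from 341 to 522 in Dox (median 374). It was lower also without those rats (log2 fold change -0.34 ± 0.09, p = 0.0011, and p = 0.0042 without them).

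Of 33 interferon response and antigen presentation genes 0 were higher and 6 lower, 9 were above 0, and the median was -0.26. Bst2, which tethers virus particles to the membrane, ranged from 33.2 to 115 normalized counts in Veh (median 55.5) and from 19.9 to 61.9 in Dox (median 32.3). Rats 1, 2, 5 and 7 had from 19.9 to 24.4, below every Veh rat, and the other 4 lay within the Veh range (log2 fold change -0.89 ± 0.23, p = 0.00061). B2m, the light chain of MHC class I, ranged from 1871 to 3041 normalized counts in Veh (median 2316) and from 1591 to 2403 in Dox (median 1932), with a log2 fold change of -0.26 ± 0.08, p = 0.0039, and p = 0.018 without Dox rat 14. Gbp2, a guanylate-binding protein, had a log2 fold change of -0.69 ± 0.21 (p = 0.0028), with the lowest values in rats 1 and 2. Psmb9, a subunit of the immunoproteasome, was near the threshold (log2 fold change -0.51 ± 0.18, p = 0.0088). Of these 6 calls 2 remained without rats 1 and 2, 4 without rats 5 and 7, 4 without the covariate and 2 with the mitochondrial share as the covariate. Complement genes were lower in 3 of 20 and higher in 0, with a median of -0.07. C3, the central component, stood at 119.6, 97.4, 192 and 232 in rats 1, 2, 5 and 7, from 328 to 451 in the other Dox rats, and from 333 to 670.5 in Veh (log2 fold change -0.91 ± 0.24, p = 0.00078). C1s, a protease of the classical pathway, lost its call when any 1 of 10 rats was left out (log2 fold change -0.35 ± 0.12, p = 0.0074).

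Of 49 matrix proteases and inhibitors 5 were higher and 1 lower, with a median of 0.06. Plat, tissue plasminogen activator, ranged from 394 to 705 normalized counts in Veh (median 587) and from 552 to 1528 in Dox (median 754). It was 1528 and 1292 in rats 1 and 2 and 868 and 919 in rats 5 and 7, all above the highest Veh rat (log2 fold change 0.63 ± 0.17, p = 0.00076, and p = 0.0085 without rats 1 and 2). Lox, which crosslinks collagen, ranged from 28.4 to 61.2 normalized counts in Veh (median 46.5) and from 51.4 to 97.6 in Dox (median 56.2). Each Dox rat lay above the Veh median, and rat 13 was highest (log2 fold change 0.48 ± 0.15, p = 0.0029). Adamts1, which cleaves proteoglycans, was highest in rats 1 and 2, at 199 and 157, with Veh rats up to 60.3 (log2 fold change 0.98 ± 0.33, p = 0.0058). Adamts14, which trims procollagen, had few counts, with a median of 10.5 in the Dox rats beside 2.97 in the Veh rats (log2 fold change 1.29 ± 0.44, p = 0.0069). Of the 6 calls 1, that of Plat, remained without rats 1 and 2, and 2 remained without rats 5 and 7. Of 68 collagens, laminins and integrins 1 was higher and 5 lower, with a median of 0.04. Col19a1, a collagen of interneurons, was higher (log2 fold change 0.60 ± 0.21, p = 0.0078), Tnc, a glycoprotein of astrocytes and the neurogenic niche, was lower (log2 fold change -0.57 ± 0.18, p = 0.0041), and so was Itgb2, the beta chain of leukocyte integrins (log2 fold change -0.42 ± 0.14, p = 0.0070). The calls of all 3 were lost without Dox rat 1 alone and without Dox rat 2 alone. None of 22 genes of brain proteoglycans and the perineuronal net passed (nearest Hapln2, log2 fold change 0.52 ± 0.22, p = 0.024).

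Of 26 phospholipase A2 and prostaglandin genes 2 were higher and 1 lower, with a median of 0.12, and Alox15 was one of them. Pla2g3, a secreted phospholipase A2, stood at 449 and 360.2 in rats 1 and 2 and between 27.7 and 47.3 in the other Dox rats. Of the Veh rats only rat 6, at 33.6, reached those, and the others had 18.1 or less (log2 fold change 2.17 ± 0.47, p = 8.9e-05). Without rats 1 and 2 the log2 fold change was 1.297, and the gene still passed (p = 0.00011). Pla2g7, which inactivates platelet-activating factor, ranged from 572 to 1172 normalized counts in Veh (median 928) and from 404 to 823 in Dox (median 597). Each Dox rat lay below the Veh median and rats 2 and 1 were lowest (log2 fold change -0.45 ± 0.10, p = 0.00013).

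Single genes passed in the lists of growth and patterning signals, counted beside the 2.97% of all genes tested that passed. Ret, the receptor of the GDNF family, was the 1 of 43 growth factors and receptors to pass and ranged from 133 to 261 normalized counts in Veh (median 197) and from 225 to 586 in Dox (median 286). All 8 Dox rats lay above the Veh median, with rats 1 and 2 at 586 and 539.7 (log2 fold change 0.62 ± 0.16, p = 0.00046, and p = 0.0031 without those rats). Of 50 Wnt and Notch genes 3 were higher and 1 lower, with a median of 0.02. Wnt9a, a ligand, ranged from 29 to 62.5 normalized counts in Veh (median 37.7) and from 40.7 to 112 in Dox (median 56.2), with a log2 fold change of 0.70 ± 0.20, p = 0.0020. Notch4, a receptor of endothelium, ranged from 108 to 221 normalized counts in Veh (median 141) and from 152 to 268 in Dox (median 198), with a log2 fold change of 0.44 ± 0.13, p = 0.0021. The Wnt receptors Fzd6 and Fzd2 moved apart, with log2 fold changes of 0.51 ± 0.14 (p = 0.0014) and -0.55 ± 0.17 (p = 0.0035). Of these 4, Fzd6 alone remained without rats 1 and 2. In the TGF-beta and BMP list 2 of 37 were higher and 0 lower. Id1, a target of BMP signaling in endothelium and quiescent stem cells, ranged from 68.4 to 178 normalized counts in Veh (median 110.0) and from 128 to 196 in Dox (median 152), with all Dox rats above the Veh median (log2 fold change 0.49 ± 0.16, p = 0.0040, and p = 0.014 without the covariate). Of 64 axon guidance genes 0 were higher and 3 lower, the semaphorin genes Sema3b (log2 fold change -0.73 ± 0.22, p = 0.0025) and Sema4d (log2 fold change -0.26 ± 0.08, p = 0.0040, and p = 0.23 without the covariate) and the ephrin gene Efnb2 (log2 fold change -0.42 ± 0.15, p = 0.0091).

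Genes of synapses and channels were counted beside the 2.97% of all genes tested that passed. Of 35 glutamate receptor genes 1 was higher and 1 lower, with a median of 0.0057. Grin2a, the GluN2A subunit of NMDA receptors, ranged from 1050.0 to 2952 normalized counts in Veh (median 1697) and from 1729.9 to 3388 in Dox (median 2530.3). All Dox rats lay above the Veh median, and Veh rats 10 and 11 stood above each of them but rat 1 (log2 fold change 0.39 ± 0.12, p = 0.0038, and p = 0.025 without rats 1 and 2). None of 14 GABA receptor genes passed (nearest Gabrg1, log2 fold change -0.31 ± 0.14, p = 0.032), and of 49 genes of synaptic vesicles and release 0 were higher and 2 lower. Of 78 potassium and HCN channel genes 0 were higher and 4 lower, with a median of -0.04. Kcnk9, a leak channel, ranged from 168 to 557 normalized counts in Veh (median 255) and from 163 to 372 in Dox (median 226), with a log2 fold change of -0.40 ± 0.13, p = 0.0057, and p = 0.25 without the covariate. The inward rectifiers Kcnj14 (log2 fold change -0.37 ± 0.13, p = 0.0060) and Kcnj9 (log2 fold change -0.32 ± 0.11, p = 0.0091) likewise did not pass without the covariate (p = 0.031 and 0.15), and none of the 4 calls remained without rats 1 and 2. Of 27 sodium and calcium channel genes 1 was higher and 1 lower. Scn3b, a beta subunit of sodium channels, ranged from 7611 to 10703 normalized counts in Veh (median 9809) and from 8767 to 18184 in Dox (median 11520.0), with rats 5 and 7 highest (log2 fold change 0.30 ± 0.11, p = 0.0081, and p = 0.16 without them).

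Of 31 neuropeptide and peptide receptor genes 0 were higher and 1 lower, 8 were above 0, and the median was -0.15. Sstr1, a somatostatin receptor, lay just short of the threshold (log2 fold change -0.53 ± 0.20, p = 0.011). None of 41 monoamine and acetylcholine receptor genes passed (nearest Drd1, log2 fold change -0.37 ± 0.15, p = 0.017). Car7, a carbonic anhydrase of neurons that shapes responses to GABA, was the 1 of 25 genes of carbonic anhydrases and chloride transport to pass and ranged from 201 to 306 normalized counts in Veh (median 252) and from 270.2 to 573 in Dox (median 344). All 8 Dox rats lay above the Veh median, with rats 1 and 2 at 551 and 573 (log2 fold change 0.56 ± 0.13, p = 0.00014), and the call remained without either pair.

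Of the 13 mitochondrially encoded genes 0 were above 0, with a median of -0.35, and 1 passed. Mt-co2, a subunit of cytochrome c oxidase, ranged from 115636 to 468848 normalized counts in Veh (median 286902) and from 117802 to 262361 in Dox (median 155065). Veh rats 4, 5, 6, 10 and 11 lay among the Dox rats or below them (log2 fold change -0.49 ± 0.17, p = 0.0067), and the call was lost when any 1 of 8 rats was left out. These genes are cut from long shared transcripts and form the mitochondrial share given above, so their common sign is 1 observation. Of 78 nuclear genes of oxidative phosphorylation 0 were higher and 1 lower, with a median of -0.0048. The 1 was Uqcrh of complex III (log2 fold change -0.22 ± 0.08, p = 0.0071, and p = 0.035 without the covariate). In cholesterol synthesis and uptake 0 of 24 were higher and 2 lower, with a median of -0.01. Cyp51, the lanosterol demethylase, ranged from 1863 to 2508 normalized counts in Veh (median 2028) and from 1213 to 2053 in Dox (median 1518). Dox rats 1, 2 and 5 were lowest and rat 14 alone lay within the Veh range (log2 fold change -0.44 ± 0.09, p = 3.9e-05). Msmo1, a methyl sterol oxidase of the same pathway, had a smaller change (log2 fold change -0.21 ± 0.06, p = 0.0029, and p = 0.024 without rats 1 and 2). None of 23 genes of glycolysis and lactate passed (nearest Pdk1, log2 fold change -0.18 ± 0.07, p = 0.020).

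None of 36 p53 target and DNA repair genes passed, with 23 above 0 and a median of 0.03. The nearest was Xpc, a sensor of DNA lesions, with all 8 Dox rats above the Veh median (log2 fold change 0.22 ± 0.09, p = 0.017, and p = 0.0093 without the covariate). Slc7a11, the cystine carrier that feeds glutathione synthesis, was the 1 of 29 antioxidant genes to pass and ranged from 819 to 1132 normalized counts in Veh (median 953) and from 486 to 1057 in Dox (median 709). Rats 1 and 2 were lowest and rat 5 alone lay above the Veh median (log2 fold change -0.45 ± 0.12, p = 0.00055). Ddit3, the stress factor CHOP, was the 1 of 31 heat shock and unfolded protein genes to pass (log2 fold change -0.28 ± 0.10, p = 0.0089), and 6 of the 31 were above 0. Of 29 lysosomal genes 0 were higher and 3 lower, with a median of -0.06, namely the proteases Lgmn (log2 fold change -0.24 ± 0.06, p = 0.00033), Ctsh (log2 fold change -0.31 ± 0.10, p = 0.0031) and Ctsz (log2 fold change -0.56 ± 0.18, p = 0.0036), of which Lgmn remained without rats 1 and 2. Of 37 proteasome genes Psmb9 alone was lower and 0 higher, with a median of 0.05. Of 52 splicing factors 1 was higher, Hnrnpdl (log2 fold change 0.30 ± 0.11, p = 0.0087), of 40 chromatin regulators 0 passed (nearest Smarca4, log2 fold change -0.16 ± 0.08, p = 0.040), and of 260 zinc finger genes 1 was higher, Zfp46 (log2 fold change 0.25 ± 0.09, p = 0.0069), and 1 lower, Zfp474 (log2 fold change -1.38 ± 0.36, p = 0.00069). Cytosolic ribosomal protein genes make up the covariate and are no result here, and of the 76 in the list that were tested 0 were higher and 2 lower.

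**Figure D4:**
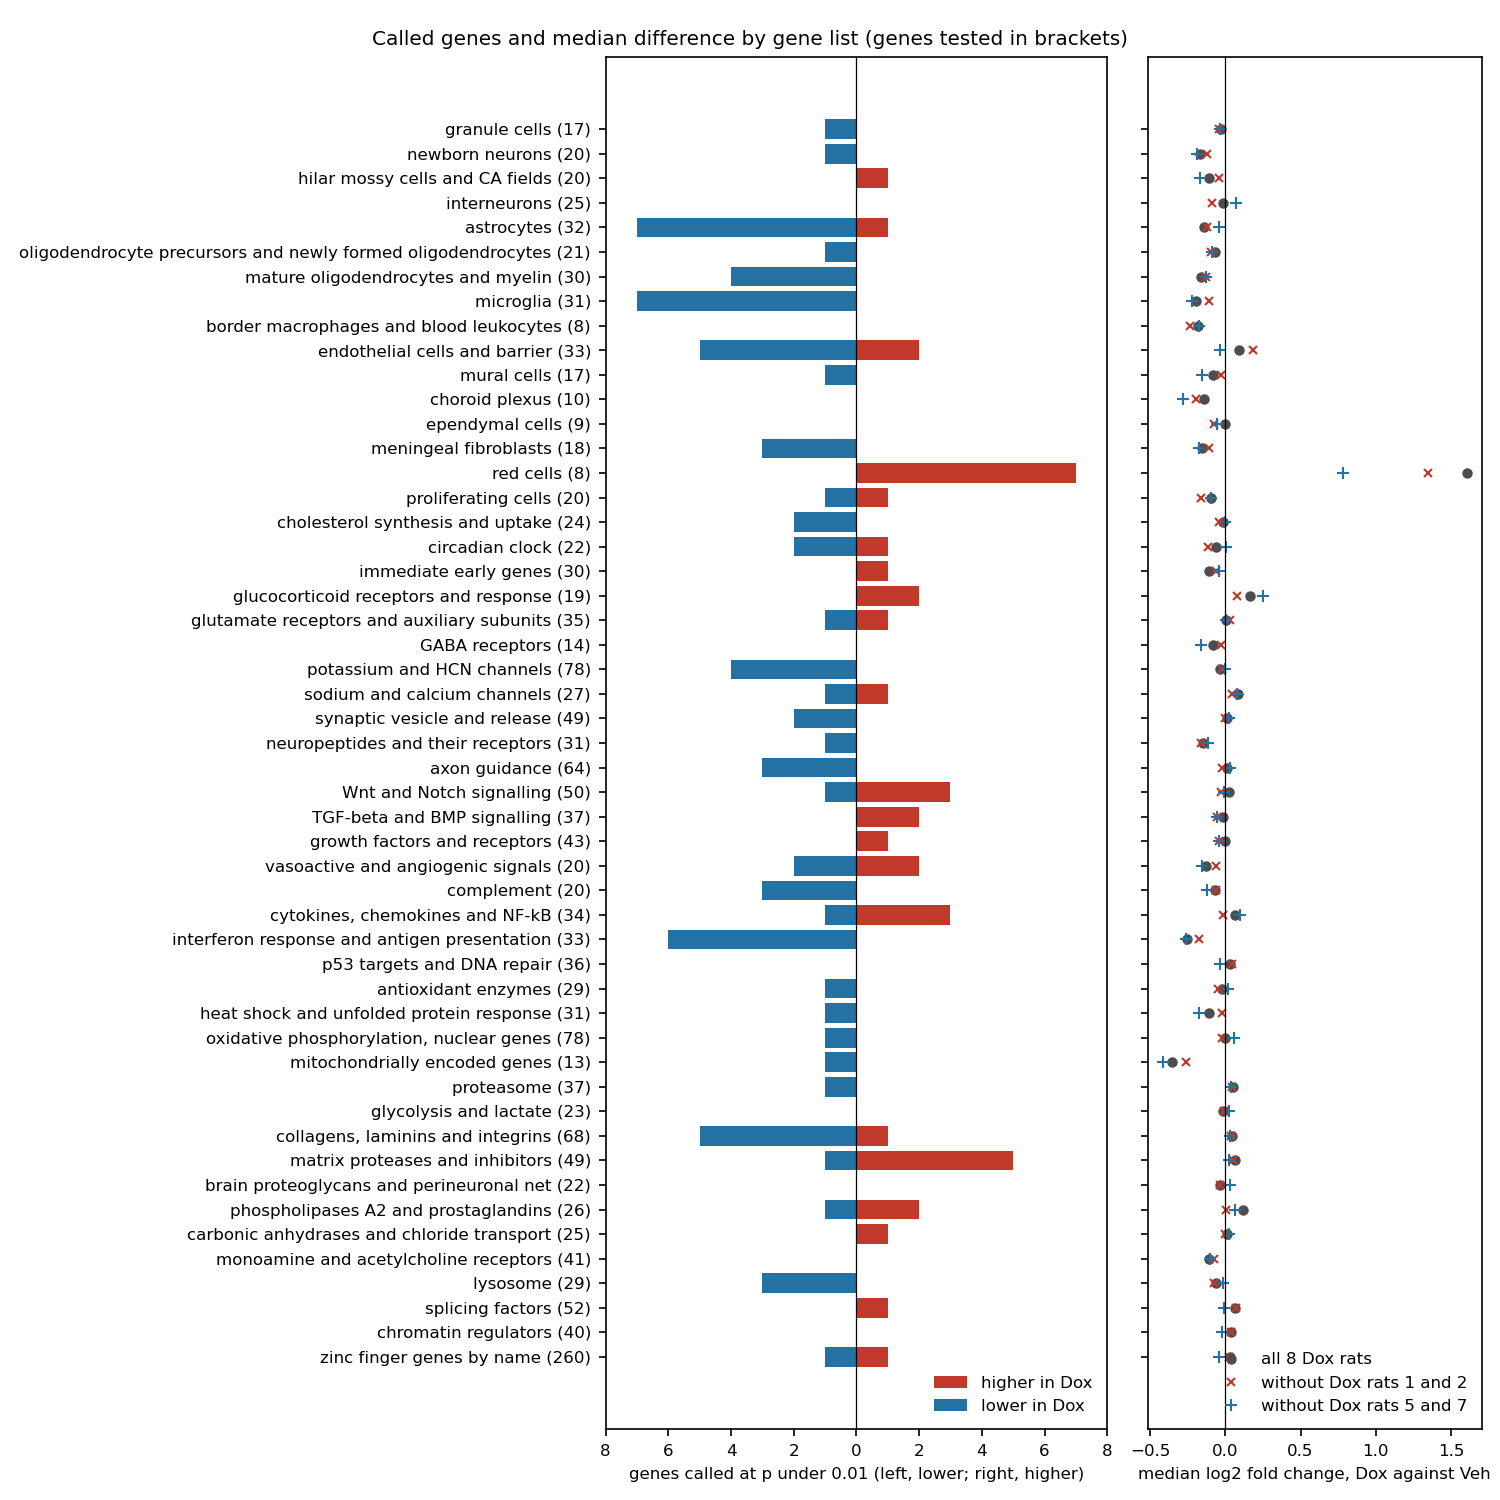
Left, genes called higher (red) or lower (blue) in Dox at p under 0.01 (x axis, number of genes) in each of 51 gene lists (y axis, number tested in brackets). Right, the median log2 fold change (x axis) of each list with all Dox rats (circles), without rats 1 and 2 (crosses) and without rats 5 and 7 (plus signs). Red cells have the highest median, 1.61 with all rats, and astrocyte, microglial and interferon genes the most lower calls, 7, 7 and 6.

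Members called but left out by the naming rule were added after their values were seen. Among astrocyte genes Aldh1l1, a folate enzyme used as an astrocyte marker, had a log2 fold change of -0.37 ± 0.12 (p = 0.0062). The tight junction gene Cldn10 had one of -0.24 ± 0.08 (p = 0.0035), and Id4, a brake on stem cell activation, one of -0.32 ± 0.11 (p = 0.0063). The 1 higher astrocyte gene was Htra1, a secreted serine protease (log2 fold change 0.32 ± 0.10, p = 0.0030). Further microglial calls were Cx3cr1, the fractalkine receptor (log2 fold change -0.59 ± 0.19, p = 0.0050), Itgam, the complement receptor chain CD11b (log2 fold change -0.53 ± 0.18, p = 0.0069), and the lysosomal membrane gene Laptm5 (log2 fold change -0.43 ± 0.15, p = 0.0065). In endothelium the efflux pump Abcg2 (log2 fold change -0.62 ± 0.21, p = 0.0059) and the sialomucin Emcn (log2 fold change -0.76 ± 0.26, p = 0.0066) were lower, and the secreted factor Egfl7 was higher (log2 fold change 0.37 ± 0.12, p = 0.0059). These 3 lost the call without rats 1 and 2 (p = 0.066 for Abcg2, 0.069 for Emcn and 0.014 for Egfl7). The other red cell calls were the globins Hba-a1 (log2 fold change 1.42 ± 0.41, p = 0.0019) and Hbb-bs (log2 fold change 1.61 ± 0.41, p = 0.00051) and the chaperone of free alpha globin, Ahsp (log2 fold change 2.45 ± 0.69, p = 0.0015). Of these 3, Hbb-bs had been chosen by the naming rule. Usp18, which limits interferon signaling, was also lower (log2 fold change -0.79 ± 0.25, p = 0.0043). The collagens Col6a5 (log2 fold change -1.27 ± 0.45, p = 0.0088) and Col5a3 (log2 fold change -0.36 ± 0.13, p = 0.0091) were lower, as was Col3a1. Of the metalloproteases Adamts3 was higher (log2 fold change 0.32 ± 0.12, p = 0.0094) and Adamts12 lower (log2 fold change -0.70 ± 0.25, p = 0.0084). Each gene given here with its p lost the call in at least 1 of the fits without the covariate, without rats 1 and 2 or without rats 5 and 7, and of these genes Aldh1l1, Cldn10, Hbb-bs, Ahsp and Col6a5 kept it without rats 1 and 2. Penk, Grin2c, Rab3b, Syt9, Cacna1s, Kcnn3 and Tgfb3 were the called members of their lists that the study's own heatmaps name.

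The lists held 116 of the 463 genes, and further genes were named by their p or the size of their change alone. Rnase4, a secreted ribonuclease, ranged from 724 to 1243 normalized counts in Veh (median 908) and from 590.1 to 861 in Dox (median 645). No Dox rat reached the Veh median (log2 fold change -0.46 ± 0.10, p = 6.0e-05). Lxn, an inhibitor of carboxypeptidases, ranged from 182 to 530.0 normalized counts in Veh (median 329) and from 113 to 221 in Dox (median 193). Again all Dox rats lay below the Veh median, and rat 2 was lowest (log2 fold change -0.69 ± 0.16, p = 0.00015). Nat8f5, of the N-acetyltransferase family, had a log2 fold change of -0.63 ± 0.15 (p = 0.00018), and Tmem176a, a membrane protein of myeloid cells, one of -0.53 ± 0.13 (p = 0.00023), with every Dox rat below the Veh median in both. Cdhr1, a cadherin known from photoreceptors, ranged from 36.2 to 77.6 normalized counts in Veh (median 53.5) and from 16.1 to 66.9 in Dox (median 24). Here rats 5, 7 and 14 were lowest and rat 10 lay above the Veh median (log2 fold change -0.998 ± 0.20, p = 2.8e-05). Slc16a12, a creatine carrier, ranged from 23.1 to 56.1 normalized counts in Veh (median 31.5) and from 8.19 to 31.1 in Dox (median 21.7), with rats 7 and 14 lowest (log2 fold change -0.98 ± 0.21, p = 9.4e-05). Lmo7, a LIM domain protein of cell junctions, was higher and ranged from 1157 to 2005 normalized counts in Veh (median 1273) and from 1473 to 2919.7 in Dox (median 1848). All Dox rats lay above the Veh median, rats 1 and 2 at 2919.7 and 2750.5 (log2 fold change 0.38 ± 0.10, p = 0.00053).

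The part of each pair of rats in the calls was counted over all genes. Rats 1 and 2 were the highest 2 of the 18 rats for 77 of the 187 higher genes (41.2%), beside 8.27% of all genes tested, and the lowest 2 for 105 of the 276 lower genes (38.04%), beside 6.02%. Rats 5 and 7 were the highest 2 for 29 of the higher genes (15.5%), beside 5.24%, and the lowest 2 for 11 of the lower genes (3.99%), beside 2.06%. The same values chose the calls, so these shares describe them and are no test. Without rats 1 and 2, 252 genes passed, 99 higher (0.635%) and 153 lower (0.981%), 182 of them among the 463. Without rats 5 and 7, 727 passed, 316 higher (2.03%) and 411 lower (2.64%), 259 of them among the 463. Without all 4 rats, 246 passed, 100 higher (0.641%) and 146 lower (0.936%), 79 of them among the 463. The median log2 fold change of the 187 higher genes was 0.49 with all rats and 0.28 without these 4, and that of the 276 lower genes -0.45 and -0.29. In all 105 genes passed with all rats, without the covariate, without rats 1 and 2 and without rats 5 and 7, of which 27 were higher and 78 lower. Of the 105 called genes that the naming rule gave here, 62 kept the call without each of the 18 rats in turn. The other 43 lost it without at least 1 rat (largest p from 0.0105 to 0.0499), namely Adamts1, Adamts14, Aif1, Aplnr, B2m, C1s, Col19a1, Cpne7, Ctsz, Ddit3, Ednrb, Efnb2, Fkbp5, Fzd2, Fzd6, Gbp2, Grin2a, Hnrnpdl, Id1, Igfbpl1, Itgb2, Kcnj14, Kcnj9, Kcnk9, Lum, Mki67, Mt-co2, Npnt, P2ry13, Prc1, Psmb9, Rorb, Scn3b, Sema3b, Sema4d, Slc4a1, Slco1a4, Tnc, Tnf, Ugt8, Uqcrh, Vegfa and Zfp46. The rats whose omission ended most of these calls were Dox rat 2 (28 calls), Dox rat 1 (26) and Veh rat 11 (26). Of the same 105 genes those not called without the covariate were Adamts14, Alas2, Alox15, C1s, Ednrb, Fabp5, Hba-a2, Hbb, Hbb-bs, Id1, Kcnj14, Kcnj9, Kcnk9, Lgals5, Npnt, Plpp3, Sema4d, Slc4a1, Uqcrh and Ybx3. Those not called without rats 1 and 2 were Adamts1, Adamts14, Aif1, Aldh1a2, Aplnr, Col19a1, Cpne7, Csf3r, Ctsh, Ctsz, Ddit3, Ednrb, Efnb2, Fkbp5, Fzd2, Gbp2, Grin2a, Hnrnpdl, Itgb2, Kcnj14, Kcnj9, Kcnk9, Lox, Lum, Mki67, Msmo1, Notch4, Npnt, Osmr, P2ry13, Pim1, Prc1, Psmb9, Rorb, Scn3b, Sema4d, Slco1a4, Socs3, Tnc, Tnf, Ugt8, Uqcrh, Wnt9a and Zfp46, and those not called without rats 5 and 7 were Adamts1, Adamts14, Alas2, Alox15, C1s, Col19a1, Ctsz, Grin2a, Hba-a2, Hbb, Hbb-bs, Hnrnpdl, Id1, Igfbpl1, Itgb2, Kcnj9, Kcnk9, Kdr, Klk6, Lgals5, Msmo1, Mt-co2, Notch4, Plpp3, Scn3b, Sema3b, Sema4d, Slc4a1, Tinagl1, Uqcrh, Vegfa and Ybx3.

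The comparison was also made within libraries of like ribosomal share, 3 Dox and 6 Veh rats above 1.3% and 5 and 4 below it, without the covariate. The log2 fold change of Dbp was -0.75 above and -0.30 below, that of Gfap -0.59 and -0.68, and that of Slc35d3 -2.07 and -0.96. For Hba-a2 it was 1.99 above, where rats 5 and 7 lie, and 1.29 below, and for Socs3 0.62 above and 2.11 below, where rats 1 and 2 lie. Other genes had a difference near 0 in 1 of the sets. The log2 fold change of Vegfa was 1.31 above and 0.0039 below, that of Mt-co2 -1.03 and -0.09, and that of Slc7a11 -0.05 and -0.78, and Tnc had 0.03 above and -1.07 below. Of the 463 genes 461 had the same sign in both sets, which share their rats with the comparison that chose the genes.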

How the data were processed

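Poly(A) RNA from the DG of 26 rats was sequenced on an Ion Proton instrument. The authors aligned the reads to rn6 with STAR 2.5.3a and normalized counts by the median ratio in Partek, and the deposited table holds these normalized counts per transcript, a signal scaled per library and not raw counts. Only 73.3% to 78.3% of the values of genes with 1 row, and 5.69% to 9.1% of those with several rows, could be turned back into whole reads (within 0.01 of a read), so no count model was run. The authors tested with DESeq2, whose results were not used.

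The 24012 rows were summed over 17910 gene IDs (13697 with 1 row), and 15595 genes whose mean over all 26 rats reached 5 were tested. Limma (3.58.1, R 4.3.3) was fitted to log2(value + 1) over 3 groups, with the log2 ribosomal protein share (78 genes) as covariate and an eBayes variance trend. A gene was called at p under 0.01, and Benjamini-Hochberg adjusted p-values over all genes tested are given for those under 0.05. Fold changes on this scale understate changes of genes with few counts. Shares were compared by exact permutation tests (scipy 1.17.1). Python 3.11.15, pandas 2.3.3 and matplotlib 3.10.9 were used otherwise. On simulated data for the comparison of Dox and Veh with 15595 genes, 91.5% of 200 genes changed by 1 on the log2 scale were recovered, and 1.06% of 15395 unchanged genes were called. The simulated noise was independent between rats and between genes. Rats that deviate together, as some Dox rats did, were not simulated, so these rates do not cover that case.

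Members of the comparison, 52 gene lists (16 of cell types, 36 of functions) and the naming rule were chosen with earlier results of these data known. Named were the genes with an adjusted p under 0.05, the 12 of smallest p per direction with a mean of 50 or more, the 8 of largest change per direction with a mean of 20 or more, and up to 4 called members of each list or, with none called, the 1 of smallest p. Genes that the study's heatmaps or text name were passed over in all but the first of these, as were IDs without a symbol and ribosomal protein genes. Some genes so chosen are not reported here, and counts over lists include them. Alternatives were other covariates, filters, pseudocounts, variance models, weights and scalings, a replicate block, and leaving out each rat or, chosen after seeing the data, Dox rats 1 and 2, rats 5 and 7, or all 4, and the split at a ribosomal share of 1.3%.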

Additional observations from a re-analysis of the deposited data

Results flagged for a closer look

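In 7 of 210 groups of values examined, a single rat lay far from the rest of its group on the log2 scale by Dixon's criterion. Chance alone gives this in about 1 of 20 groups, so 7 of 210 is not more than chance gives. Among the Veh rats, rat 6 was highest for the myelin gene Ugt8, at 731 normalized counts. Without that rat the log2 fold change of Ugt8 was -0.36 and no longer called (p = 0.018 in limma's test). Veh rat 10 was lowest for Alox15 (7.44 normalized counts), for the microglial gene Aif1 (104) and for the spindle gene Prc1 (5.95). Without it the log2 fold changes were 2.66 for Alox15 (p = 0.0028), -0.56 for Aif1 (p = 0.00054) and -1.07 for Prc1 (p = 0.0036). Veh rat 12 was highest for the thyroxine carrier Slco1c1 (1199), whose log2 fold change without it was -0.63 (p = 0.0022), and Veh rat 11 for Wnt9a (62.5), with 0.80 without it (p = 0.0013). In Dox, rat 2 was lowest for Lxn (113), and the log2 fold change without it was -0.60 (p = 0.00049).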

How the results depend on the processing

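Of the 463 calls (187 higher, 276 lower), fewer were made with the mitochondrial share as the covariate (291, of which 139 higher and 152 lower), with both shares (256, 120 and 136) and with limma's array weights (253, 109 and 144). Without Dox rats 1 and 2 there were 252 (99 and 153), without all of rats 1, 2, 5 and 7, 246 (100 and 146), and without rats 1 and 2 and without the covariate 181 (58 and 123). Without rats 5 and 7 there were 727 (316 higher and 411 lower). Among libraries with a ribosomal share below 1.3% there were 626, of which 313 were higher. These sets of rats and the split were chosen after seeing the data, and the cause of each shift was not tested. The share of calls that were lower moved from 59.6% to 52.2% with the mitochondrial share and 47.2% with the replicate block. Leaving out each rat in turn gave 292 to 556 calls, 113 to 223 higher and 179 to 336 lower, and 292 came without Dox rat 2 and 306 without Dox rat 1. The other alternatives, among them no covariate (448), Dox and Veh rats alone (355), pseudocounts of 0.5 and 5 (462 and 461), no filter (510) and quantile normalization (468), stayed within 1.5 times the count of 463. Of the 105 named genes that were called, 61 stayed past the threshold without rats 1 and 2, 73 without rats 5 and 7, 25 without all 4, 85 without the covariate, 69 with the mitochondrial share as the covariate and 65 with both shares. With array weights 59 stayed, with the replicate block 54, without rats 1 and 2 and without the covariate 42, and among libraries above and below a ribosomal share of 1.3% 44 and 43. Leaving out each rat in turn kept 77 to 101 of them, and the other alternatives kept 79 or more. The sign turned for Alox15 (-0.17) and Kcnj9 (0.0023) without rats 1, 2, 5 and 7, and for Tnc (0.028) in libraries above 1.3%. The labels number the rats and do not say what the numbers stand for. Of 5 same-numbered Dox and Veh pairs the correlations of deviations ran from -0.22 to 0.20, and 1 was above 0.1. Equal numbers alone were compared, so a batch that spans a range of numbers was not tested. With the number as a replicate block 303 genes were called (160 higher and 143 lower), 147 of them among the 463, and 2 had an adjusted p under 0.05. The 5 genes with an adjusted p under 0.05 became 4 to 35 when each rat was left out in turn, 15 with a slope of the ribosomal share in each group, 3 without the covariate and 1 with the mitochondrial share or with both shares. Depth, from 10166231 to 24327755 estimated reads, limits genes with few counts.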
